A study of Mus musculus with 7 samples.

Results

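Laminins are heterotrimers of 1 alpha, 1 beta and 1 gamma chain that assemble inside the cell, are secreted and polymerise into the sheet on which a basement membrane is built. The lens capsule is such a basement membrane, laid down by the lens epithelium on its outer side, and collagen IV, nidogen and perlecan are tied to its laminin sheet. The chain composition differs between tissues, and the laminin-binding integrins and dystroglycan connect the sheet to the cells above it. The laminin chains are described here as the 17 probe sets whose only gene symbol on the array is Lama1 to Lama5, Lamb1 to Lamb3 or Lamc1, 9 genes in all, out of 45037 probe sets and 18193 genes with a probe set of 1 symbol. Lamc3 is given as a related chain.

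Gene expression in lens epithelium was compared between SPARC-null mice (KO) and wild-type mice (WT), all of 1 litter on a C57Bl/6 background, 28 days old and normally housed. SPARC is a secreted matricellular glycoprotein that binds collagen IV, and mice without it develop cataract with changes of the lens capsule. The KO group held 4 lenses of 3 animals (1L and 1R of animal 1, 4L and 7L) and the WT group 3 lenses of 3 animals (2L, 5L and 6L), where the number is the animal and L or R the eye. Laser capture, a dissection under the microscope, took the epithelial cells from sections of each frozen lens, and the amplified RNA of a lens went onto 1 array of oligonucleotide probe sets. Per the labels, all animals were female but KO animal 7. The animal was the unit of replication, lenses 1L and 1R were averaged, and n = 3 per group throughout. The labels name no tissue-specific deletion, and the animals, as littermates, are separate but related samples.

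Values are the deposited signals, scaled so that every array had a trimmed mean of 500.003 or 500.004. Differences are KO minus WT on the quantile normalized log2(signal + 16) scale, tested with limma and adjusted over all 45037 probe sets. As a gauge of background, the 27 bacterial control probe sets without a target in mouse RNA reached a signal of 45.5. The brightest probe set of Sparc itself read 8.14 to 70.5 in KO lenses, against 27371 to 49972 in WT lenses, so all 7 arrays matched their labels. Of 12 lens epithelium markers, 11 lay above the highest control in every lens, and the exception was Foxe3, a transcription factor of this epithelium (11.5 to 84.1 in KO lenses, against 40.2 to 118 in WT lenses). All 10 lens fibre markers, 9 of 10 skeletal muscle markers and all 9 stromal markers measured also lay above the control in every lens. Higher values in KO, seen in 45.6% of all genes, were the majority among markers of macrophages (10 of 11, median log2 difference 0.48), Müller glia and retina (7 of 9, 0.47), pigmented and ciliary cells (6 of 9, 0.70) and mural cells (7 of 8, 0.23). Lower values were the majority among markers of surface epithelium (10 of 10, -1.38), lens fibres (8 of 10, -0.16) and stroma (6 of 9, -0.16). The part of these cell types in the laminin values was not tested. The WT lens 2L stood apart in a gauge of RNA integrity and in array controls. All bioB, bioC, bioD and cre control probe sets were lowest in that lens. Of these, AFFX-CreX-3_at read 20809.6 in 2L, against 32835.5 to 44107.7 in the other lenses. The ratio of the 3' over the 5' signal of Gapdh, which is lower where RNA is more intact, was 9.88 to 15.9 in KO lenses, and in WT lenses it was 3.75 in 2L, 9.06 in 5L and 15.9 in 6L (p = 0.6 in a two-sided exact permutation test over animals, whose smallest possible p is 0.1). In a captured sample, fewer cells of a type and less RNA per cell cannot be told apart.

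No laminin probe set passed the test. Of all probe sets tested, 3 (0.00666%) passed an adjusted p of 0.05, and 2 of these were probe sets of Sparc itself. Of the 17 laminin probe sets, 0 passed. The smallest unadjusted p among them was 0.0197 (Lamb3), the only one of the 17 under 0.05, a share of 4.06% being reached over all probe sets. In none of the 17 were all 4 KO lenses above or all below the 3 WT lenses, which was so for 5.33% of all probe sets. With each chain taken at its brightest probe set, 7 of 9 chains had lower and 2 had higher values in KO (8 lower and 1 higher with median centring of the arrays), and the median of the log2 differences was -0.27. Over all genes taken the same way, 54.4% had lower values and the median was -0.030. The 95% interval of 8 of the 9 chains included 0, and that of Lamb3 did not before adjustment.

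**Figure D1:**
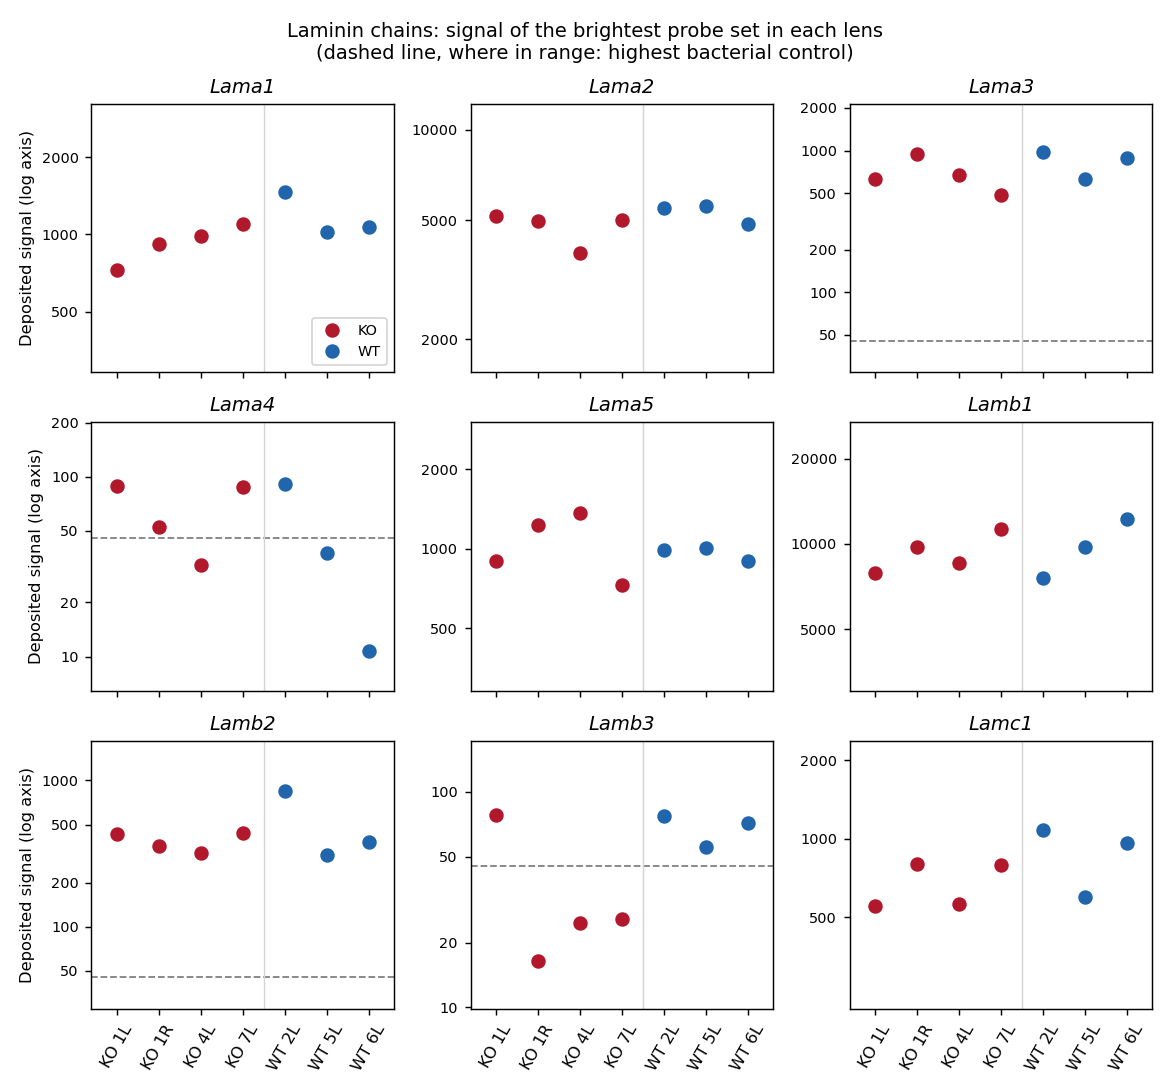
Deposited signal (log axis) of the brightest probe set of each of the 9 laminin chains in the 4 KO lenses (red) and the 3 WT lenses (blue), with 1 point per lens. The groups overlap for every chain, and Lama4 and Lamb3 lie around the highest bacterial control (dashed line, 45.5).

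Among the alpha chains, which carry the cell-binding end of the trimer, Lama1 encodes the chain of embryonic basement membranes that the lens capsule keeps in the adult. Lama1 (1418153_at) read 729, 921, 982 and 1098 in the KO lenses 1L, 1R, 4L and 7L, against 1466, 1020 and 1066 in the WT lenses 2L, 5L and 6L. Of the KO lenses, 3 lay below all WT lenses and 7L lay among them. KO and WT differed by -0.27 (SE 0.22, 95% interval -0.76 to 0.22; limma adjusted p = 0.99988), with animal means of 9.93 ± 0.20 in KO and 10.20 ± 0.22 in WT (SD, n = 3). The WT lens 2L, which had the most intact RNA by the Gapdh ratio, was the highest of all, and without that animal the KO minus WT difference was -0.15. Without KO animal 1 it was -0.16.

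Lama5 encodes the alpha chain most widespread in adult basement membranes. Its brightest probe set (1427010_s_at) read 899, 1225, 1367 and 727 in the KO lenses 1L, 1R, 4L and 7L, against 989, 1011 and 899 in the WT lenses 2L, 5L and 6L. The KO lenses spread over both sides of the narrow WT range. Between the group means the difference was 0.083 (SE 0.26, 95% interval -0.51 to 0.67). A second probe set above the control in every lens (1427009_at) read 721 to 1135 in KO lenses, against 890 to 1330 in WT lenses, with a difference of -0.20 (SE 0.25). The lenses of KO animal 1 stood in opposite order on these probe sets, 1R above 1L by 0.43 on the first and 1L above 1R by 0.44 on the second (log2), so the array gives no common direction for Lama5. The remaining probe set (1459614_at) was at or under the highest control in all 7 lenses.

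Lama2 encodes the alpha chain best known from muscle and peripheral nerve, where its loss causes muscular dystrophy. The Lama2 probe set (1426285_at) was well above background in all lenses, at 5162, 4957, 3884 and 5010 in the KO lenses 1L, 1R, 4L and 7L and at 5490, 5566 and 4861 in the WT lenses 2L, 5L and 6L. The KO lens 4L lay below all others, and the other KO lenses lay within the WT range. The log2 difference was -0.19 (SE 0.20, 95% interval -0.64 to 0.25), and it was -0.052 without KO animal 4 and -0.11 without WT animal 2. The summed signal of 10 skeletal muscle markers was lowest among KO lenses in 4L too (20048, others 35457 to 63619), but it was lower still in the WT lens 6L (13494, others 27823 and 79900) while its Lama2 signal was above that of 4L. The part of muscle RNA in the Lama2 signal was not tested.

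Lama4, the alpha chain of blood vessel walls, was weak. Its brighter probe set (1424807_at) read 32.3 to 89.3 in KO lenses, against 10.8 to 91.4 in WT lenses, with 1 of 4 KO and 2 of 3 WT lenses at or under the highest control, and the other one stayed under it in all 7. The log2 difference of 0.42 (SE 0.55, 95% interval -0.81 to 1.65) is therefore poorly resolved. Of 10 endothelial markers, 6 lay above the control in every lens, and Pecam1, an endothelial adhesion molecule, read 4.19 to 8.01 in KO lenses, against 2.71 to 7.54 in WT lenses. The 10 markers summed to a signal of 2240 to 2998 in KO lenses, against 2229 to 3176 in WT lenses. Egfl7 was the brightest of the 10 in every lens (830 to 1586 in KO lenses, against 1489 to 1913 in WT lenses). Higher in KO were 8 of these markers and lower 2 (7 and 3 with median centring), and their median difference was 0.17. Cldn5, a tight junction protein of endothelium, differed by 0.90 (SE 0.40) and its KO lenses all lay above the WT lenses, Kdr, a VEGF receptor, differed by 0.65 (SE 0.34), and Egfl7 differed by -0.58 (SE 0.26). The part of endothelial RNA in the Lama4 signal was not tested.

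Lama3 encodes the alpha chain of the laminin that anchors stratified epithelia through hemidesmosomes, a chain at home in skin and cornea. Its brightest probe set (1427512_a_at) read 628, 949, 671 and 483 in the KO lenses 1L, 1R, 4L and 7L, against 974, 628 and 882 in the WT lenses 2L, 5L and 6L. KO minus WT came to -0.36 (SE 0.26, 95% interval -0.94 to 0.23; limma adjusted p = 0.99988). It was -0.16 without KO animal 7 and -0.15 with array weights. The KO lenses held both a value near the top of the WT range and the lowest of all 7. The other Lama3 probe set was at or under the highest control in 4 of 4 KO and 2 of 3 WT lenses.

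**Figure D2:**
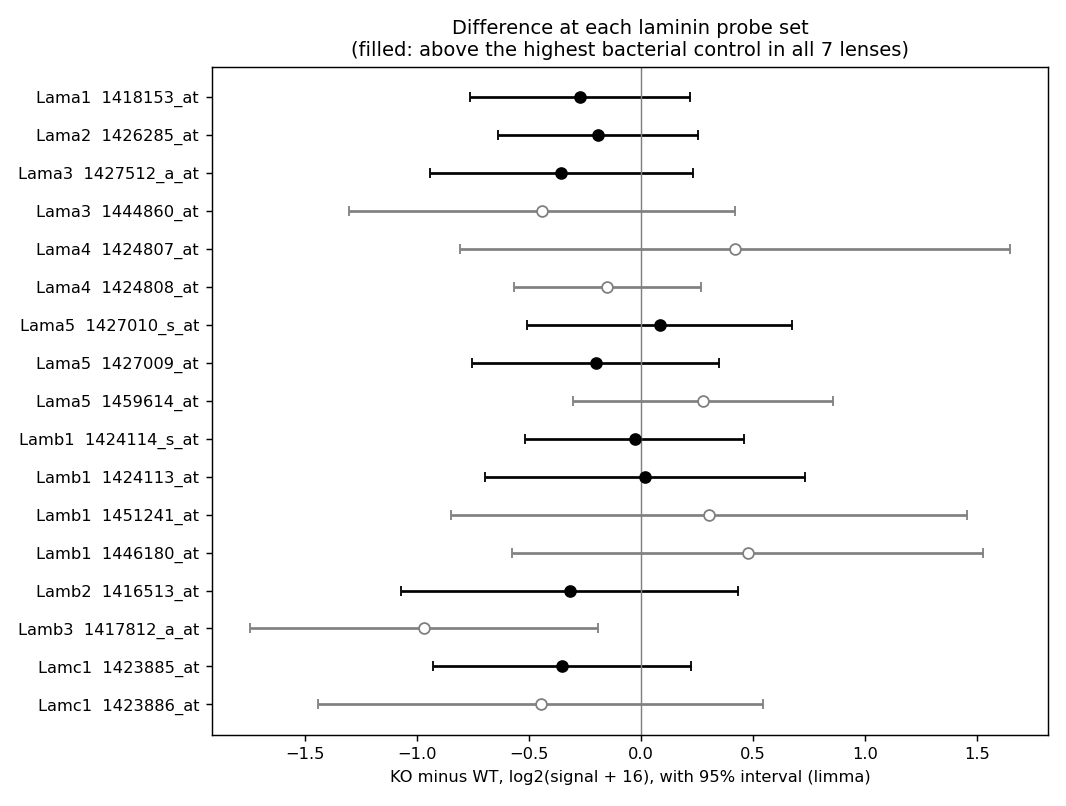
KO minus WT difference on the log2(signal + 16) scale with its 95% interval from limma, for the 17 laminin probe sets. Filled points are the 9 probe sets above the highest bacterial control in all 7 lenses; 1 interval, that of Lamb3, does not include 0 before adjustment.

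Of the beta chains, Lamb1 encodes the partner of most laminins of simple epithelia. The probe set 1424114_s_at read 7917, 9732, 8563 and 11298 in the KO lenses 1L, 1R, 4L and 7L, against 7568, 9723 and 12227 in the WT lenses 2L, 5L and 6L. As deposited, the KO signals lay inside the WT range. The log2 difference was -0.028 (SE 0.22, 95% interval -0.52 to 0.46), with animal means of 13.21 ± 0.34 in KO and 13.24 ± 0.18 in WT. A second probe set (1424113_at) differed by 0.018 (SE 0.32), with KO lenses from 511 in 1L to 1619 in 7L and WT lenses from 771 to 1095. On both probe sets 1L was the lowest and 7L the highest of the 7 lenses after normalization. The remaining 2 Lamb1 probe sets lay near the control (8.71 to 81.9 in KO lenses, against 6.84 to 48.9 in WT lenses).

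Lamb2 encodes the beta chain of the kidney filter, the neuromuscular junction and parts of the retina and lens. Its probe set (1416513_at) read 428, 358, 317 and 436 in the KO lenses 1L, 1R, 4L and 7L, against 847, 312 and 381 in the WT lenses 2L, 5L and 6L. A single lens, 2L, set the WT mean apart, and the other WT lenses lay within the KO range or just below it. The group difference was -0.32 (SE 0.34, 95% interval -1.07 to 0.43), and without WT animal 2 it was 0.047.

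Lamb3 encodes the beta chain that pairs with Lama3 in the hemidesmosome laminin. Its probe set (1417812_a_at) read 78.3, 16.3, 24.6 and 25.6 in the KO lenses 1L, 1R, 4L and 7L, against 77.5, 55.3 and 71.9 in the WT lenses 2L, 5L and 6L. The KO lenses 1R, 4L and 7L were at or under the highest control, all 3 WT lenses were above it, and 1L read as high as the WT lenses. The log2 difference was -0.97 (SE 0.35, 95% interval -1.75 to -0.19; unadjusted p = 0.0197, limma adjusted p = 0.99988), the largest in size of the 9 chains. The lenses 1L and 1R of a single animal differed by 1.57, more than the groups did, and the group difference was -0.71 with 1L alone for that animal and -1.23 with 1R alone. As signals this weak depend on the pseudocount, it was -1.34 with 1 and -0.53 with 64 in place of 16. The unadjusted p was no longer under 0.05 with 1L alone, with the 7 lenses taken as independent, without KO animal 4 or without KO animal 7.

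Lamc1 encodes the gamma chain shared by most laminins. Its brighter probe set (1423885_at) read 554, 803, 562 and 791 in the KO lenses 1L, 1R, 4L and 7L, against 1078, 600 and 963 in the WT lenses 2L, 5L and 6L. The KO lenses 1L and 4L lay below all WT lenses, and 1R and 7L fell between 5L and 6L. Between groups the difference was -0.35 (SE 0.26, 95% interval -0.93 to 0.22; limma adjusted p = 0.99988), with animal means of 9.42 ± 0.20 in KO and 9.77 ± 0.39 in WT. It was -0.58 without WT animal 5, and -0.24 without WT animal 2 or without WT animal 6. The other Lamc1 probe set was weak (5.64 to 46.9 in KO lenses, against 5.44 to 53.9 in WT lenses). Lamc3, a gamma chain of nerve and retina, was near background too (46.1 to 61.8 in KO lenses, against 18.8 to 75.9 in WT lenses), with a difference of 0.30 (SE 0.42).

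For the 7 chains above the highest control in every lens, the estimates ran from -0.36 (Lama3) to 0.083 (Lama5). Their 95% intervals reached down to 0.476-fold (Lamb2) and up to 1.60-fold (Lama5). These are the widest bounds of the 7, and the intervals of Lama1, Lama2, Lama3 and Lamc1 ended at 1.16-fold to 1.19-fold upward. The SD over animals within groups was 0.21 for Lama1 and for Lama2, 0.27 for Lamb1 and 0.48 for Lamb2, against a median of 0.33 over the 11865 genes above the control in all 7 lenses. The lenses of KO animal 1 differed by 0.029 (Lama2) to 0.59 (Lama3) in these 7 chains, against a median gap of 0.41 over the same genes.

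By lens, the 7 chains were highest in the WT lens 2L, where their median stood 0.34 above the mean of the 6 animals, and lowest in the KO lenses 4L (-0.27) and 1L (-0.19). The remaining lenses lay between -0.068 and 0.053. After normalization, lens 2L was the highest of the 7 lenses for 4 of these chains (Lama1, Lama2, Lamb2 and Lamc1), and it was the highest for 16.2% of all genes above the control. The transcripts of these chains are long, and 2L had the lowest 3' over 5' ratios and the lowest bioB, bioC, bioD and cre control signals. The part of RNA integrity and of differences between arrays was not tested. Without WT animal 2 the median difference over the 9 chains was -0.11, compared with -0.27 with all animals.

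**Figure D3:**
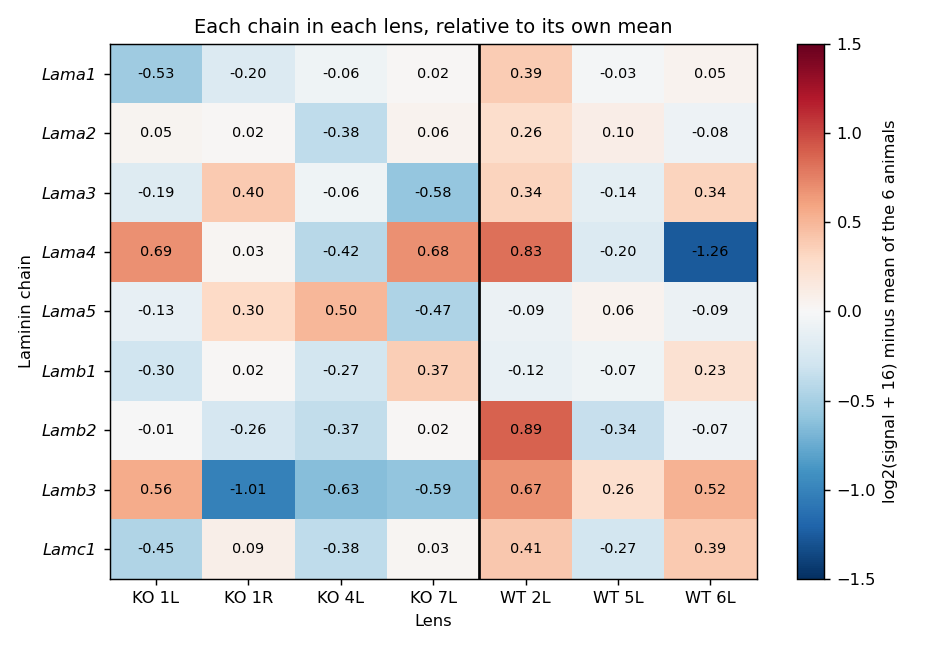
Each laminin chain (rows, brightest probe set) in each lens (columns, 4 KO then 3 WT), as the log2(signal + 16) value minus the chain's mean over the 6 animals. The WT lens 2L is high for Lamb2 (0.89) and Lamc1 (0.41), the KO lens 1L is low for Lama1 (-0.53), and Lamb3 is low in the KO lenses 1R, 4L and 7L.

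The balance between chains was compared within each lens, since a shift of partners could leave single chains unresolved. For 4 pairs, chosen after the values had been seen, the log2 ratio of signals was compared between animals. Lama5 over Lama1 was higher in KO by 0.35, with 1L, 1R and 4L above all WT lenses and 7L below them, but by only 0.068 with the other Lama5 probe set (1427009_at) and by 0.20 without WT animal 2. Lamb1 over Lamc1 was higher by 0.32 (0.14 without WT animal 2) and Lama1 over Lamc1 by 0.081 (0.091 without that animal). The Lamb2 over Lamb1 difference was -0.29, and its direction rested on lens 2L, as it was 0.14 without WT animal 2. None differed beyond the spread of animals (two-sided exact permutation tests, p = 0.4 for Lama5 over Lama1, 0.3 for Lamb1 over Lamc1, 0.7 for Lama1 over Lamc1 and 0.8 for Lamb2 over Lamb1, each 0.8 after Benjamini-Hochberg adjustment over the 4 pairs, with 0.1 the smallest unadjusted p possible).

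Lama3 stood in nearly the same order over the lenses as the summed signal of surface epithelium markers. This epithelium is the stratified layer of cornea and conjunctiva in which its laminin is made. The signals of 10 such markers, among them Krt12, the keratin of the corneal epithelium, summed to 7090, 15891, 7746 and 1380 in the KO lenses 1L, 1R, 4L and 7L, against 18114, 9701 and 11535 in the WT lenses 2L, 5L and 6L. Krt12 had the highest signal of these markers in every lens (11505 of 18114 in 2L). By single marker, Krt5, Krt12, Krt16, Col17a1 and Upk1b were highest in 2L, and Dsc3 and Trp63 in 1R. Krt14, Krt15 and Krt6a were highest in 5L, where Lama3 read 628. The lenses with the 3 highest sums (2L, 1R and 6L) were those with the 3 highest Lama3 signals, and 7L was lowest in both. This likeness was looked for after the values had been seen. Lamb3 did not follow that order, as 1R had the second highest sum and the lowest Lamb3 signal.

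**Figure D4:**
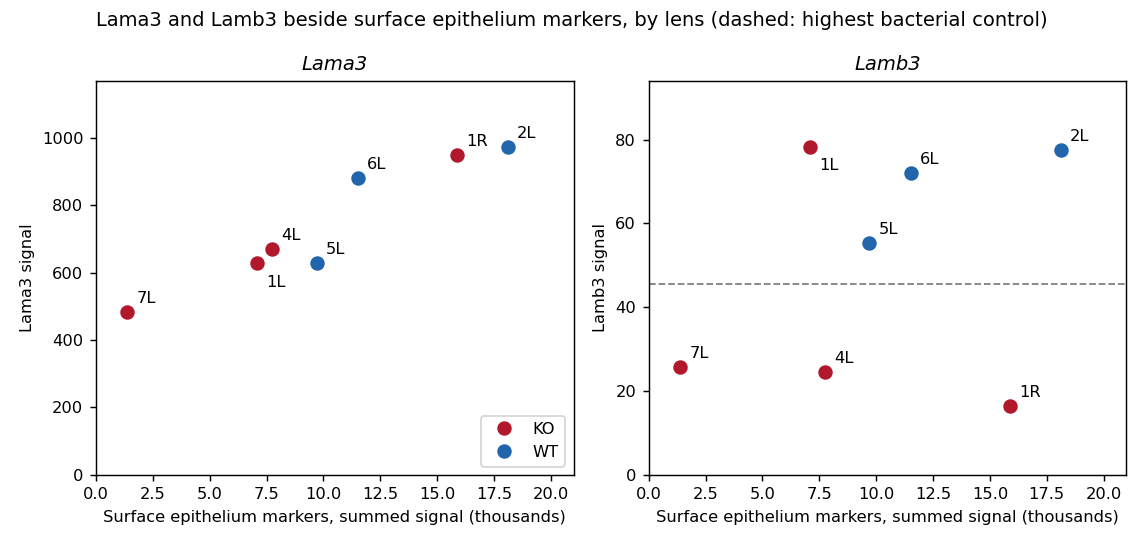
Signal of Lama3 (left) and Lamb3 (right) in each lens against the summed signal of 10 surface epithelium markers (horizontal axis), with KO lenses in red and WT lenses in blue. Lama3 is highest in the lenses 2L, 1R and 6L, which also have the highest sums, while Lamb3 is under the highest bacterial control (dashed line) in 1R, 4L and 7L.

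All 10 surface epithelium markers had lower values in KO. Their median difference was -1.38 (log2), compared with -0.030 over all genes, and 5 of them had an unadjusted p under 0.05, compared with 4.06% of all probe sets in either direction, while 0 passed after adjustment in limma. Krt12 read 530 to 10667 in KO lenses, against 3447 to 11505 in WT lenses. Col17a1, the transmembrane collagen of hemidesmosomes, read 6.34 to 226 in KO lenses, against 98.0 to 517 in WT lenses. The part of surface epithelium RNA in the Lama3 and Lamb3 values was not tested.

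Laminin receptors were read next. None of the 11 measured passed the test, 5 had higher and 6 lower values in KO (2 and 9 with median centring, 6 and 5 with the signals as deposited), and the median difference was -0.020. Itga6, the alpha subunit of the main laminin-binding integrins of epithelia, was at 13.22 ± 0.33 in KO and 13.18 ± 0.49 in WT (difference 0.034, SE 0.27). Its partner Itgb1, the common integrin beta subunit, differed by -0.069 (SE 0.26), and by 0.096 (SE 0.34) at its other probe set above the control. Dag1, which encodes dystroglycan, was at 12.83 ± 0.22 in KO and 12.92 ± 0.13 in WT, a difference of -0.091 with a 95% interval of -0.52 to 0.33. Cd151, a tetraspanin bound to these integrins, differed by 0.20 (SE 0.21) at its brightest probe set and by -0.12 to 0.30 at the others above the control in all lenses. Itga3, an alpha subunit of the same integrin group, differed by -0.25 (SE 0.26).

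Itgb4, the integrin subunit of hemidesmosomes, had the smallest p of the receptors. It read 68.3, 48.9, 67.9 and 6.56 in the KO lenses 1L, 1R, 4L and 7L, against 93.3, 77.2 and 86.6 in the WT lenses 2L, 5L and 6L. It was the only receptor whose KO lenses all lay below the WT lenses, a separation seen in either direction in 5.33% of all probe sets. The log2 difference was -1.05 (SE 0.51; unadjusted p = 0.0676, limma adjusted p = 0.99988), on signals close to the control in both groups. Bcam, a receptor for the Lama5 chain, was at or under the control in 3 of 4 KO lenses and above it in all WT lenses (difference -0.65, SE 0.48). The lowest lens of Itgb4, 7L, was also the lowest for the surface epithelium markers. The second lowest lens of Itgb4, 1R, had the second highest sum of those markers.

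The 7 measured enzymes that build the laminin-binding glycan on dystroglycan had a median difference of -0.082, with 2 higher and 5 lower, and none passed the test. The nearest to it were Pomgnt1 (-0.23, SE 0.25), B4gat1 (-0.21, SE 0.24), Pomgnt2 (0.19, SE 0.29) and Pomt2 (-0.14, SE 0.30). At another probe set above the control in all lenses Pomgnt2 differed by -0.24 (SE 0.30), so its probe sets gave no common direction. Of 7 members of the dystrophin complex, which ties dystroglycan to the cytoskeleton, 3 had higher and 4 lower values (median -0.16). Sgcb, a sarcoglycan, was at 9.74 ± 0.22 in KO and 9.29 ± 0.27 in WT (difference 0.45, SE 0.24). At its other probe sets, also above the control in all lenses, Sgcb differed by 0.30 (SE 0.26) and by 0.020 (SE 0.26). Utrn, the utrophin gene, differed by -0.21 (SE 0.19). None of these passed either.

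The 19 partners in the basement membrane also gave no call, with 7 higher and 12 lower values in KO and a median of -0.082. Nid1, which links laminin gamma chains to collagen IV, was at 14.31 ± 0.14 in KO and 14.45 ± 0.16 in WT, a difference of -0.13 with a 95% interval of -0.54 to 0.28. Hspg2, which encodes perlecan, differed by 0.14 (SE 0.30) at its brightest probe set and by -0.49 (SE 0.28) at another above the control in all lenses, so its probe sets gave no common direction. Agrn, the agrin gene, differed by -0.082 (SE 0.22). After normalization, groups did not overlap for 3 of the 19, compared with 5.33% of all probe sets. Col18a1, a collagen of the epithelial basement membrane, read 258 to 346 in KO lenses, against 131 to 236 in WT lenses (difference 0.61, SE 0.30, with limma unadjusted p = 0.0742 and adjusted p = 0.99988). At another Col18a1 probe set above the control in all lenses the difference was 0.42 (SE 0.31), and there the groups overlapped after normalization. Col7a1, the anchoring fibril collagen, differed by 0.37 (SE 0.28), and Smoc1, a secreted relative of SPARC, differed by -0.51 (SE 0.32). As deposited, the Smoc1 signals overlapped, with 161 in the KO lens 1L and 157 in the WT lens 6L. Smoc2 differed by -1.01 (SE 0.57), on values at or under the control in 3 of 4 KO and 1 of 3 WT lenses.

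**Figure D5:**
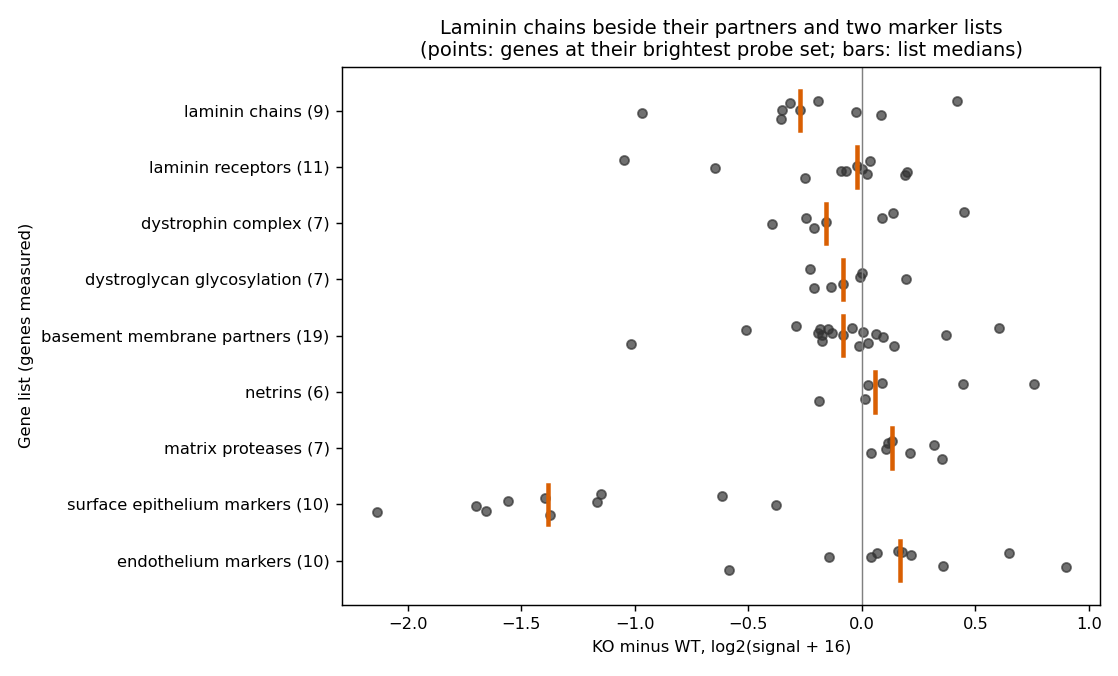
KO minus WT difference on the log2(signal + 16) scale for each measured gene (points, brightest probe set) of the laminin family, of 6 lists of its partners and of 2 marker lists; bars are medians. The medians of the partner lists lie between -0.16 and 0.13, that of the laminin chains at -0.27 and that of the surface epithelium markers at -1.38.

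Netrins share the laminin N-terminal domain and include Ntn4, which can break laminin polymers. Ntn4 differed by -0.19 (SE 0.26) and the median of the 6 genes was 0.059. Ntng1, a membrane-anchored netrin of neurons, had an unadjusted p of 0.0427 and a difference of 0.76 (SE 0.33, limma adjusted p = 0.99988), with signals of 233 to 515 in KO lenses, against 157 to 207 in WT lenses. Its second probe set above the control in each lens differed by 0.81 (SE 0.36), and the remaining 2 were at or under the highest control in all 7 lenses. All 7 matrix proteases listed had higher values in KO (6 of 7 with median centring), compared with 45.6% of all genes. Their median was 0.13, and none had an unadjusted p under 0.05 in limma. Mmp2 differed by 0.041 (SE 0.33) at its brightest probe set and by -0.10 (SE 0.32) at another above the control in all lenses. Such a second probe set of Bmp1 kept the direction (0.20, SE 0.43). Mmp14, a membrane-bound metalloproteinase, differed by 0.32 (SE 0.34) and Mmp9, a gelatinase, by 0.35 (SE 0.40), while Plau and Plg were at or under the highest control in all 7 lenses.

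Likeness to Lamc1 was measured as Pearson's r over the 6 animals, among 11864 other genes above the control in all lenses. The 3 most like were Micu2, a mitochondrial calcium uptake protein (r = 0.988), Vkorc1l1, a vitamin K reductase (r = 0.970), and Mrps22, a mitochondrial ribosomal protein (r = 0.969). Of all genes compared, 67 (0.565%) had r above 0.9. Among the laminin chains, each at its brightest probe set, Lamb2 (r = 0.757) and Lama1 (r = 0.680) were nearest. Lama5 ran the other way at 1427010_s_at (r = -0.576). Its other probe set above the control (1427009_at) was not compared, so this direction belongs to 1 probe set only. These values are a description over 6 points that share the arrays and their scaling.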

How the data were processed

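Per the labels' protocols, captured epithelium gave total RNA by a micro kit, which went through repeated amplification with biotin labelling. The deposited intensity values are linear signals, 1 per probe set, and the table shows that the authors scaled each array to the same mean after trimming 2% at each end. No source used here gives the software for summarising and background correction. Only 7 arrays limit the precision.

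Of 45101 probe sets, 64 array controls were left out. Signals were turned into log2(signal + 16), quantile normalized, averaged over lenses 1L and 1R, and compared with limma 3.58.1 in R 4.3.3 (intensity trend, two-sided, Benjamini-Hochberg adjustment over 45037 probe sets). The pseudocount makes log2 differences understate the change of weak probe sets. The platform annotation gave 1 symbol for 34945 probe sets, 932 had several and were not named, and 9160 had none. Amplification from the 3' end disfavours probe sets far from it, and the position of the laminin probe sets was not given. All 9 chains were named, with up to 4 genes of smallest p from each partner list and others needed to describe it. The chains and lists were chosen with earlier results of these data known. The code was tested on simulated data. Alternatives were the unit of replication, either lens of animal 1, normalization, a filter on low values, the variance model, array weights, the pseudocount, the probe set per chain and leaving out each animal. Levels of different probe sets are not comparable as amounts of RNA, and the chains were not ranked by level. The brightest probe set of a gene, the brightest marker of a list and the summed marker signals refer to signal only. Such sums are weighted to their brightest probe sets. Exact permutation tests used scipy 1.17.1.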

Additional observations from a re-analysis of the deposited data

Results flagged for a closer look

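For Lama2, the KO lens 4L lay far below the other KO lenses. Its gap to the nearest of them was 0.907 of the whole range of the 4 KO lenses on the normalized log2 scale, above the 95% critical value of Dixon's test for 4 samples. Of the 9 chains tested in this way it was the only one past that value, and chance flags about 1 in 20 such groups. Lenses 1L and 1R come from a single animal, so the 4 lenses are not independent.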

How the results depend on the processing

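The count of laminin probe sets past the adjusted threshold was 0 under all 16 alternatives run, with a lowest adjusted p of 0.696 (limma, array weights), and that of all probe sets was 2 or 3. The median difference over the chains ran from -0.37 to -0.11 over 19 alternatives, and leaving out each animal gave -0.35 to -0.11. Lama1, Lama2, Lama3, Lamb3 and Lamc1 had lower values in KO in every alternative run. Lama5 turned to -0.022 with median centring, and leaving out each animal gave -0.15 (without KO animal 4) to 0.34. Lamb1 turned to 0.026 when 1R alone stood for KO animal 1, and leaving out each animal gave -0.22 to 0.10, with 0.036 without KO animal 1, 0.10 without KO animal 4 and 0.078 without WT animal 6. Leaving out each animal gave -0.57 to 0.047 (without WT animal 2) for Lamb2 and -0.10 (without WT animal 6) to 0.94 for Lama4. The Lamb2 over Lamb1 ratio turned to 0.14 without WT animal 2. The cause of these turns was not tested. Median centring put the median of all genes above the control at -0.11, against -0.033. At an unadjusted p under 0.05, 1011 probe sets were higher and 817 lower in KO, compared with 801 and 1092 with median centring and 1271 and 574 with the signals as deposited. The animal as a random block was not run, since only 1 animal gave a pair of lenses and its correlation could not be estimated. The restriction to chains above the control (median -0.27) and the alternatives for the chain ratios were added after seeing the data. No paired analysis was possible because KO and WT animals share no replicate numbers. Lama4, Lamb3 and the weak probe sets of other chains lie too near the bacterial controls for a resolved fold.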
